A study of Mus musculus with 12 samples.

Results

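The 8 genes that carry glucose and fructose into liver cells and along glycolysis were followed here in mouse liver with and without simvastatin. They were chosen by symbol, with no measured value in the rule but with earlier results of these data known. They are Slc2a2, Khk, Gckr, Gpi1, Pfkl, Pfkfb1, Pfkfb3 and Pklr, 8 of the 48526 genes listed in the expression table. The study compared female and male C57BL/6J mice that ate chow or chow with simvastatin for 4 weeks, with 3 livers in each of 4 groups. The mice were 8 to 10 weeks old at the start, and each liver came from 1 animal and was sequenced in bulk. The labels give the dose as 0.1 g per kg body weight and the methods give the same figure per kg of food, and the labels list 1 diet formula for both diets where the methods name another for the control diet. The female chow, female statin, male chow and male statin groups therefore share strain, age and tissue and differ by sex and diet.

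A hepatocyte takes up glucose and fructose through the membrane carrier GLUT2, traps them by phosphorylation and passes their carbon through glycolysis to pyruvate. In liver this route also feeds fat synthesis after a carbohydrate meal, and several of its genes are known targets of ChREBP, a factor encoded by Mlxipl that binds a carbohydrate response element made of a pair of E-box-like sites. Simvastatin inhibits HMG-CoA reductase, the rate-limiting enzyme of cholesterol synthesis.

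The promoters below are shown because the 8 genes include known ChREBP targets. The part of ChREBP in the differences with statin was not tested. The promoters are RefSeq sequences of GRCm38.p6, and positions are counted back from the RefSeq start site at -1. All 8 genes had an entry, with 13 start sites in all. The motifs were searched on both strands of the 250 bases upstream of each start, namely the E-box CACGTG and the carbohydrate response element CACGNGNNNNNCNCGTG. The E-box lies inside any element whose own boxes read CACGTG. A match was found in 3 of the 13 windows, those of Khk and of the second starts of Pklr and Pfkfb3, and in none of the windows of Slc2a2, Gckr, Gpi1, Pfkl, the 4 Pfkfb1 starts and the first Pklr and Pfkfb3 starts. Capitals mark a match.
Pklr: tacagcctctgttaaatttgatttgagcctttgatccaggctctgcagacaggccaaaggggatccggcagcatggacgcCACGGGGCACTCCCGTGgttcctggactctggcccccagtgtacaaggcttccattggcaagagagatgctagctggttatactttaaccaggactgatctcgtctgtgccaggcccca
Gpi1: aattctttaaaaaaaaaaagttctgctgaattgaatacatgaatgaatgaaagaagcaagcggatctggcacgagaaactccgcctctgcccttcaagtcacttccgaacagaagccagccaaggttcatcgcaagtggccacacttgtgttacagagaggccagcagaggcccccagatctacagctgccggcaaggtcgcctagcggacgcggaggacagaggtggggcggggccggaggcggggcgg
Pfkfb3: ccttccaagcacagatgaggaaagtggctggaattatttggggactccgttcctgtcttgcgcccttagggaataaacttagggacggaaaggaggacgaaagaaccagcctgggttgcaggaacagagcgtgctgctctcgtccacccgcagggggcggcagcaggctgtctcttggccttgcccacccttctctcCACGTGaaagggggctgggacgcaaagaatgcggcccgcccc
Khk: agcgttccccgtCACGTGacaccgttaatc
The Pklr stretch runs from -250 to -52 before the second of its 2 RefSeq starts (chr3:89136373-89136571, plus strand), within an intron of the longer Pklr transcripts, and holds a carbohydrate response element at -170 to -154. That element was present in 13 of 32851 promoters (0.0396%). The Gpi1 stretch (chr7:34230337-34230586, minus strand) held neither motif, and 167 of its 250 bases lie in an exon of the noncoding gene Gm12762 on the same strand. The Pfkfb3 stretch, before the second of its 2 starts (chr2:11502102-11502340, minus strand), lies in an intron of the longer Pfkfb3 transcripts and holds an E-box at -53 to -48. Of the Khk window only the 30 bases around its E-box at -71 to -66 are shown (chr5:30921476-30921505, plus strand), because the annotation places them in the first exon of a Khk transcript. An E-box was found in 6.02% of all promoters. A match describes letters in a window, and the counts per gene do not tell which start site was used.

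All 8 genes passed the filter on low counts, more than 1 CPM in at least 6 livers, which 11968 genes passed. The libraries held 46066381 to 60419223 counts, so 3 counts, the limit that a count of 0 allows, correspond to 0.0497 to 0.0651 CPM. The genes described here had between 288 counts (the lowest liver for Pfkfb3) and 69820 (the highest for Pklr). Hepatocyte markers summed to 78821 to 164970 CPM, and the 4 skeletal muscle markers were at or under 3 counts in every liver. Kupffer cell markers summed to 447 to 718 CPM in females and 259 to 421 in males, and lymphocyte markers to 14.9 to 18.5 CPM in female chow, 22.2 to 28.0 in female statin and 9.27 to 16.3 in male livers. Their part in the results was not tested, and in bulk tissue fewer cells of a type cannot be told apart from less RNA per cell. Livers of 1 group also differed along 1 axis that held 57.8% of the within-group variance of 7641 genes and whose gene weights followed exonic length (Spearman rho = 0.452, taken over genes, which do not count as independent replicates). Within groups, over the 12 livers, Slc2a2 (r = 0.88) and Pfkl (r = 0.77) moved with this axis, Khk (r = -0.86), Gckr (r = -0.86) and Pfkfb1 (r = -0.76) against it, and Gpi1 (r = 0.13) and Pklr (r = -0.03) showed little relation to it. The value for Pfkfb3 was 0.42.

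Levels are given as TMM-normalized CPM, read counts scaled to a common library total. Compared between genes per kilobase of exon, Khk led in female chow livers with a mean of 649 CPM per kb, followed by Pklr (342), Gpi1 (105), Slc2a2 (82.7), Gckr (43.2), Pfkfb1 (17.3), Pfkl (6.70) and Pfkfb3 (1.67). The panels of levels in each liver show that Gpi1, Khk, Pklr and Pfkfb1 were highest in females on chow, with no overlap with the next group. Gckr was also highest there by mean, with overlap.

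**Figure D1:**
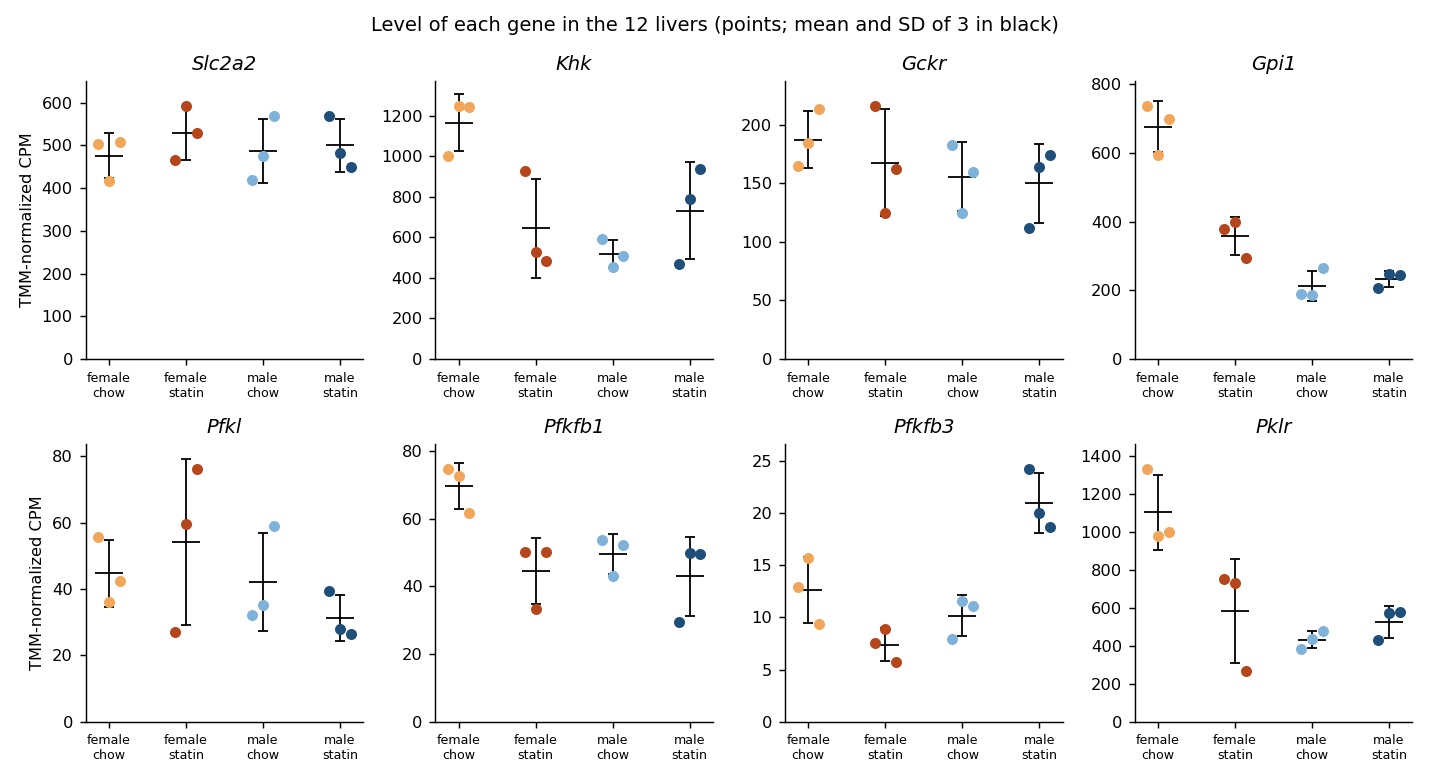
TMM-normalized CPM (linear axis from 0, own scale for each gene) of the 8 genes in each of the 12 livers, with points for livers and black bars for the mean and SD of 3 livers per group. All female chow livers lie above the female statin livers for Gpi1, Khk, Pklr, Pfkfb1 and Pfkfb3, and all male statin livers lie above the male chow livers for Pfkfb3.

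The first comparison asked how the liver transcriptome of females answered to statin. Gpi1, Khk, Pklr, Pfkfb1 and Pfkfb3 were lower in statin-fed than in chow-fed females with no overlap between the groups, at 52.9%, 55.4%, 52.9%, 63.9% and 58.4% of the chow mean. These 5 of 8 genes had an unadjusted p under 0.05 in edgeR's quasi-likelihood test, against 4.56% of all 11968 genes that did so in the lower direction and 5.97% that did not overlap in that direction. The list was chosen with earlier results of these data known, so this count is descriptive. None of the 8 passed the adjusted threshold of 0.05 by edgeR or by limma, and Gpi1 alone did by DESeq2, which called 0.936% of all genes lower. By edgeR 12 of all genes passed it (0.100%). The median log2 fold change of the 8 genes was -0.71, and that of all genes was 0.013.

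In males on the same diets only Pfkfb3 had an unadjusted p under 0.05, with higher levels on statin. That is 1 of 8 genes, beside 0.844% of all genes that did so in the higher direction and 3.64% that did not overlap in that direction. After adjustment edgeR called 0 of 11968 genes (0%) in males, where 101 higher and 133 lower ones had an unadjusted p under 0.05 and limma called 0 and DESeq2 2 higher and 2 lower genes. Those 101 and 133 genes became 301 and 402 without the first male statin liver, 55 and 72 without the second, and 184 and 176 with each sex fitted alone. Among the 8 genes DESeq2 called Pfkfb3. The median log2 fold change of the 8 genes in males was 0.08, beside 0.0036 for all genes.

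The interaction of sex and statin, the statin effect in females minus that in males, was fitted as a term of the same model. Of the 8 genes, 4 (Pfkfb3, Gpi1, Khk and Pklr) had a negative interaction with an unadjusted p under 0.05, against 3.39% of all genes in that direction. EdgeR called 0 of 11968 genes (0%) after adjustment, with 553 positive and 406 negative ones at an unadjusted p under 0.05, and DESeq2 called 77 positive and 45 negative ones, Gpi1 and Pfkfb3 among the latter. Without the first female statin liver 797 positive and 643 negative ones had an unadjusted p under 0.05.

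**Figure D2:**
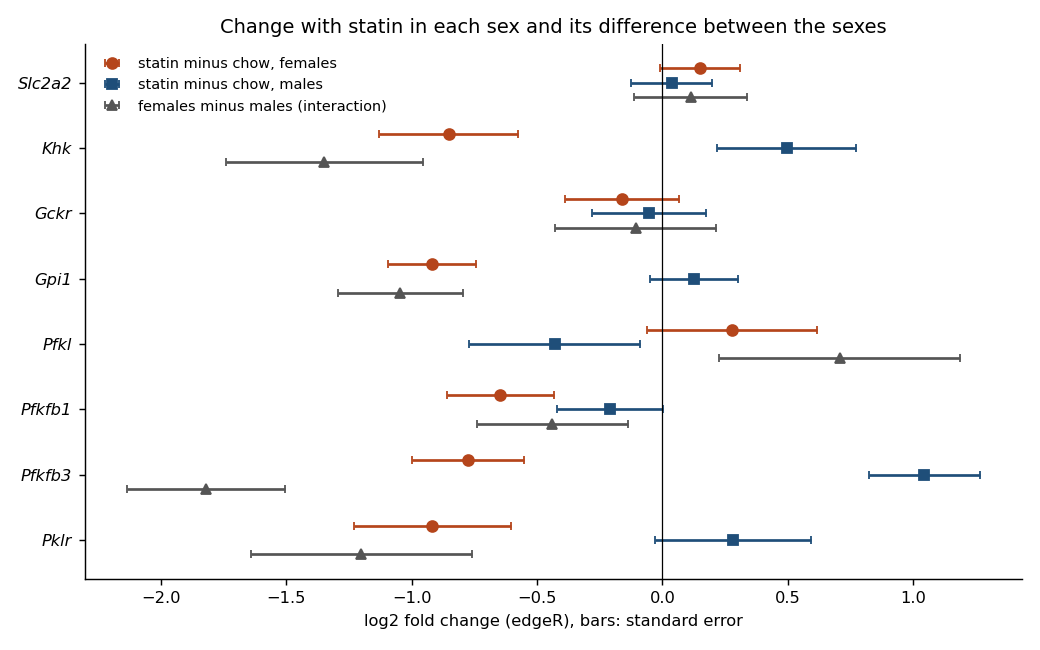
Log2 fold change with statin in females (circles) and males (squares), and the difference between them (triangles), for the 8 genes, with bars for the standard error from edgeR. Circles of Gpi1, Pklr, Khk, Pfkfb3 and Pfkfb1 lie between -0.92 and -0.65, and the square of Pfkfb3 lies at 1.05.

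Sugar entry begins with Slc2a2, which encodes GLUT2. Its level was 504, 416 and 509 CPM in the female chow livers, 465, 592 and 528 in female statin, 419, 475 and 568 in male chow and 569, 482 and 449.5 in male statin. The 4 groups overlapped throughout, and the group means lay between 476 ± 52.4 CPM in female chow and 528 ± 63.2 in female statin (SD, n = 3). The log2 fold change with statin was 0.15 (SE 0.16, adjusted p = 0.880, edgeR) in females and 0.04 (SE 0.16, adjusted p = 1.00) in males. Slc2a2 on chromosome 3 (28697903 to 28731359) overlaps the antisense gene 1700112D23Rik in introns only.

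Khk encodes ketohexokinase, which phosphorylates fructose in the committed step of its use by the liver. It was read at 1004, 1247 and 1246 CPM in female chow livers and at 927, 526 and 485 in female statin livers. Male chow livers had 594, 456 and 508 CPM and male statin livers 471, 791 and 936. All 3 statin-fed females were below all 3 chow-fed females, with 1 of them close to the chow range, while the male groups overlapped. The log2 fold change was -0.85 (SE 0.28, adjusted p = 0.280, edgeR) in females and 0.50 (SE 0.28, adjusted p = 1.00) in males, with an interaction of -1.35 (SE 0.39, adjusted p = 0.347). Khk moved against the length-related axis within groups (r = -0.86), and after a correction for exonic length the female value was -0.88 (adjusted p = 0.134) and the male value 0.47. Without the third female statin liver the female value was -0.67, with an unadjusted p above 0.05 (adjusted p = 0.744, edgeR), and without the first male statin liver the male value was 0.73, with an unadjusted p under 0.05 (adjusted p = 0.730). Without the third male statin liver the male value was 0.28, with an unadjusted p above 0.05. Khk lies on chromosome 5 (30921431 to 30931248) and has 8 exon blocks.

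Gckr encodes a regulatory protein that restrains the first phosphorylation of glucose in hepatocytes. Its levels of 164, 185 and 213 CPM in female chow livers overlapped with 216, 125 and 162 in female statin livers. In males the values were 183, 124 and 159.8 CPM on chow and 112, 164 and 174 on statin, again overlapping. The log2 fold changes were -0.16 (SE 0.23, adjusted p = 0.936, edgeR) in females and -0.05 (SE 0.23, adjusted p = 1.00) in males. No group of Gckr stood apart from another in any of the comparisons.

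Gpi1 encodes the isomerase that turns glucose phosphate into fructose phosphate, an early step of glycolysis. Female chow livers had 735, 592 and 698 CPM and female statin livers 379, 399 and 294. Male chow livers had 189, 186 and 264 CPM and male statin livers 206, 246 and 245. The order of the groups was female chow, female statin, male statin and male chow, and only the male groups overlapped as neighbours in that order. With a log2 fold change of -0.92 (SE 0.18, adjusted p = 0.0951, edgeR) Gpi1 had the smallest adjusted p of the 8 genes in females, and DESeq2 gave an adjusted p of 0.000221. In males it was 0.13 (SE 0.18, adjusted p = 1.00), and the interaction was -1.05 (SE 0.25, adjusted p = 0.277, DESeq2 0.0134). Gpi1 lies on chromosome 7 (34201330 to 34230336), where 741 bp of its exons overlap the noncoding gene Gm26762 on the other strand. The library kit kept strand, but the strand setting of the counting is not given in the sources used here.

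Pfkl encodes the liver subunit of phosphofructokinase, the main control step of glycolysis. Female chow livers had 55.7, 36.0 and 42.6 CPM, and female statin livers spread from 27.0 to 59.5 and 76.2. Male chow livers had 32.3, 35.0 and 59.0 CPM, and male statin livers 39.3, 28.1 and 26.4. Its groups overlapped in every comparison, and the spread in female statin was the second widest of the 8 genes, with an SD of 46.1% of the mean. The log2 fold change was 0.28 (SE 0.34, adjusted p = 0.907, edgeR) in females and -0.43 (SE 0.34, adjusted p = 1.00) in males. Leaving out the first female statin liver moved the female value to 0.60, with an unadjusted p under 0.05 (adjusted p = 0.344). With 1 liver left out the male value ranged from -0.63 to -0.11.

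Pfkfb1 and Pfkfb3 encode bifunctional enzymes that make and remove the signalling form of fructose bisphosphate, a strong activator of phosphofructokinase that is distinct from the bisphosphate that phosphofructokinase itself makes. Pfkfb1 is the main liver form, whereas Pfkfb3 is an inducible form with mostly kinase activity. Pfkfb1 was read at 74.6, 72.5 and 61.8 CPM in female chow livers and at 50.2, 33.3 and 50.1 in female statin livers. In males it was 53.7, 42.9 and 52.3 CPM on chow and 29.4, 49.8 and 49.6 on statin. The female groups did not overlap and the male groups did. The log2 fold change of Pfkfb1 was -0.65 (SE 0.21, adjusted p = 0.284, edgeR) in females and -0.21 (SE 0.21, adjusted p = 1.00) in males, with an interaction of -0.44 (SE 0.30, adjusted p = 0.844). Without the first male statin liver the interaction of Pfkfb1 was -0.65 (adjusted p = 0.383), with an unadjusted p under 0.05 in this 1 of 12 fits with a liver left out, and without the second female statin liver it was -0.28 (adjusted p = 0.808). After correction for exonic length the female value was -0.64 (adjusted p = 0.226). Pfkfb1 lies on the X chromosome (150588229 to 150643878), and 123 bp of its exons overlap Apex2 on the other strand.

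Pfkfb3 was the least abundant of the 8 genes, at 12.9, 15.7 and 9.33 CPM in female chow livers and 7.52, 8.91 and 5.72 in female statin livers. Male chow livers had 7.90, 11.5 and 11.1 CPM, and male statin livers had 24.2, 20.0 and 18.7. Each male statin liver was above all 9 other livers, and each female statin liver was below all 3 female chow livers. The log2 fold change was 1.05 (SE 0.22, adjusted p = 1.00, edgeR) in males, where the statin mean was 207% of the chow mean and DESeq2 gave an adjusted p of 0.0336. In females it was -0.78 (SE 0.22, adjusted p = 0.218). The interaction of -1.82 (SE 0.31, adjusted p = 0.137, edgeR) was the largest of the 8 genes in size, and its adjusted p was 8.86e-05 by DESeq2, 0.00108 with no filter on low counts and 0.0486 without the second female statin liver.

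Pklr encodes the liver form of pyruvate kinase, which makes pyruvate in the last step of glycolysis. Female chow livers had 1334, 983 and 999 CPM and female statin livers 754, 733 and 267. Male chow livers had 386, 435 and 480.1 CPM, and male statin livers 431, 573 and 579. The female groups did not overlap, and 1 statin-fed female was lower than every other liver. With a log2 fold change of -0.92 (SE 0.31, adjusted p = 0.303, edgeR) Pklr differed in females by as much as Gpi1, but with a larger error. The value was -0.56 (adjusted p = 0.542) without the third female statin liver. Without the first female chow liver it was -0.75 (adjusted p = 0.642) and no longer had an unadjusted p under 0.05. In males it was 0.28 (SE 0.31, adjusted p = 1.00), and the interaction was -1.20 (SE 0.44, adjusted p = 0.473), or -1.04 (adjusted p = 0.711) without the first female chow liver, where the unadjusted p exceeded 0.05. Pklr lies on chromosome 3 (89136142 to 89146784), and 711 bp of its exons overlap Hcn3 on the other strand.

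Sex was then compared within each diet. These comparisons use the same female chow and female statin livers as the statin comparison, so the values are given side by side. On chow, Gpi1, Pklr and Khk were higher in females, at 3.17, 2.55 and 2.24 times the male level. These 3 of 8 genes passed the adjusted threshold by edgeR, DESeq2 and limma, in a comparison in which edgeR called 10.4% of all genes and 5.96% in the female-higher direction. The log2 differences were 1.67 (SE 0.18, adjusted p = 0.000118, edgeR) for Gpi1, 1.35 (SE 0.32, adjusted p = 0.0182) for Pklr and 1.17 (SE 0.28, adjusted p = 0.0206) for Khk. With one liver left out the adjusted p of Pklr reached 0.0791 and that of Khk 0.0775, and both exceeded 0.05 without the second or the third male chow liver. Khk also exceeded it without the second or the third female chow liver, and Pklr without the first female or the first male chow liver. Pfkfb1 did not overlap between the sexes on chow, with a log2 difference of 0.49 (SE 0.21, adjusted p = 0.174). The differences of Gckr (0.27), Pfkfb3 (0.32), Pfkl (0.09) and Slc2a2 (-0.03) had adjusted p values of 0.420 to 0.922.

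On statin, 1 of the 8 genes passed the adjusted threshold, Pfkfb3, which was lower in females by 1.51 on the log2 scale (log2 difference -1.51, SE 0.22, adjusted p = 0.00170, edgeR). EdgeR called 6.28% of all genes in this comparison and 1.90% in the female-lower direction. The log2 sex difference of Gpi1 was 0.62 (SE 0.18, adjusted p = 0.0590), with no overlap, and DESeq2 gave an adjusted p of 0.0140. By edgeR the adjusted p of Gpi1 was 0.0326 without the third female statin liver and 0.0431 without the third male chow liver. For Khk it was -0.18 (SE 0.28, adjusted p = 0.810) and for Pklr 0.15 (SE 0.31, adjusted p = 0.872), so the means of the sexes lay within 1.13 and 1.11 times of each other on statin. Pfkl was higher in females by 0.79 (SE 0.34, adjusted p = 0.219), with overlap, and by 1.11 (adjusted p = 0.0335) without the first female statin liver. Without the third it was 0.48 (adjusted p = 0.548), and 8 of 12 fits with 1 liver left out had an unadjusted p under 0.05. The Kupffer cell marker sums given above were also higher in females than in males on both diets, and edgeR called 2 of 6 of these markers on chow and 4 of 6 on statin, beside 5.96% and 4.38% of all genes called higher in females. Stellate cell markers summed to 314 to 398 CPM in females and 226 to 278 in males, with 5 of 5 markers higher in females on both diets and 2 of them called on chow and 1 on statin by edgeR. Endothelial markers summed to 204 to 307 CPM in females and 159 to 234 in males, again with 5 of 5 higher in females on both diets and 1 of them called on chow and 0 on statin by edgeR. The part of these markers in the sex differences was not tested.

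**Figure D3:**
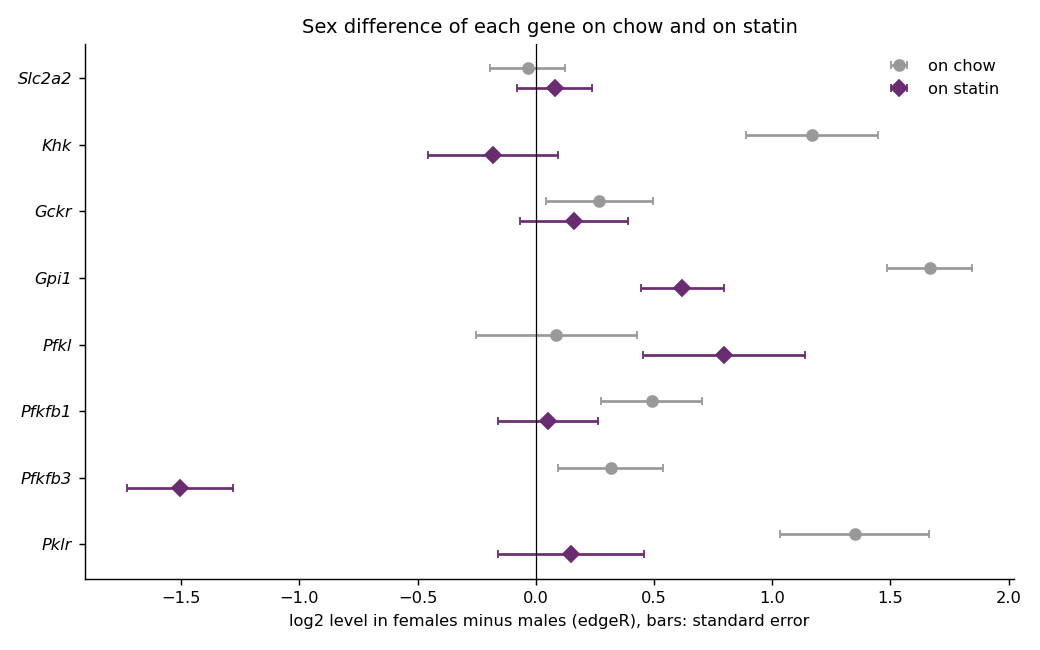
Log2 level in females minus males for the 8 genes on chow (circles) and on statin (diamonds), with bars for the standard error from edgeR. On chow Gpi1, Pklr and Khk lie at 1.67, 1.35 and 1.17, and on statin Khk and Pklr lie near 0 while Pfkfb3 lies at -1.51.

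The genes were also compared with each other across livers, as a description over 12 livers that share groups and libraries. By Pearson's r Gpi1 and Pklr were the closest pair (r = 0.85, rho = 0.80), and the correlation of their deviations from the group means was 0.74. By Spearman's rho Khk with Gckr (0.83) and Khk with Pklr (0.81) were closer. Khk followed Pklr (r = 0.79), Gckr (r = 0.75) and Gpi1 (r = 0.74), but within groups its correlation with Gckr was 0.88, with Pklr 0.45 and with Gpi1 0.32. Slc2a2 followed Pfkl (r = 0.68). Within groups Khk ran opposite to Pfkl (r = -0.80) and Slc2a2 (r = -0.70), which are the genes that moved the other way along the length-related axis.

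Among the other genes tested, some of those most like each gene over the 12 livers were listed by Pearson's r of log2(CPM + 1). Gpi1 was followed by Eno1, the glycolytic enolase (r = 0.98, rho = 0.96), Mdh2, a mitochondrial malate dehydrogenase (r = 0.97), and Ces2g (r = 0.97). Near Khk stood Gm11773 (r = 0.98) and Cdkn2d (r = 0.96). Pklr was followed by Camk1d, Samm50 and Ctsl (each r = 0.96), and Pfkfb3 by Dcaf12 (r = 0.94), Cnot6l and Spopl (each r = 0.90). Gckr was most like Josd2 (r = 0.95), Pfkl most like Keap1 (r = 0.95) and Pfkfb1 most like Kptn (r = 0.92). Close to Slc2a2 stood Cadm1 and Trim25 (each r = 0.91).

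The rest of the pathway was read from lists of 50 further genes, of which 45 passed the filter. In females 2 of the 45 were higher and 9 lower at an unadjusted p under 0.05 (5.93% and 4.56% of all genes), and none passed after adjustment by edgeR or limma, whereas DESeq2 called 2 lower, Tkfc among them, and 1 higher, Fgf21 (0.936% and 1.32% of all genes). In males 1 was higher and 3 lower (0.844% and 1.11% of all genes), and none passed after adjustment by edgeR, limma or DESeq2. The median log2 fold change of the 45 was -0.04 in females and 0.02 in males. For the interaction 4 were positive and 8 negative at an unadjusted p under 0.05 (4.62% and 3.39% of all genes), with none after adjustment by edgeR or limma. DESeq2 called Fgf21 and Tkfc, among 77 positive and 45 negative of 11968 genes. With no filter on low counts edgeR called the interactions of Me1 (-2.39, adjusted p = 0.0150) and Fgf21 (1.97, adjusted p = 0.0344). That fit called 61 positive and 42 negative of 26304 genes.

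Tkfc, which encodes the triokinase that phosphorylates glyceraldehyde from fructose, had 897, 609.6 and 767 CPM in female chow livers and 409, 494 and 337 in female statin livers, with a log2 fold change of -0.88 (SE 0.19, adjusted p = 0.110). The female groups did not overlap, and DESeq2 called the difference, as did edgeR with no filter on low counts (adjusted p = 0.0205) but not with the filter. On chow Tkfc was higher in females than in males by 1.18 on the log2 scale (adjusted p = 0.00260). Sord, the sorbitol dehydrogenase that makes fructose from sorbitol, had the opposite sign, with a log2 fold change of 0.45 (adjusted p = 0.312) in females, which lost its unadjusted p under 0.05 without the first female chow liver (0.34, adjusted p = 0.640) and with each sex fitted alone (0.44, adjusted p = 0.771), and lower levels in females than in males on chow (-0.64, adjusted p = 0.0234).

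Among hexose transporters, Slc2a4, which encodes the insulin-responsive carrier GLUT4 of muscle and fat, was read at 38.7, 27.2 and 18.8 CPM in female chow livers and at 4.14, 10.3 and 0.636 in female statin livers. In the 6 male livers it lay between 0.759 and 2.26 CPM. The female groups did not overlap, and the log2 fold change was -2.48 (SE 0.67, adjusted p = 0.187, edgeR). The adjusted p was 0.00201 with no filter on low counts and 0.0405 without the second female statin liver, and the value ranged from -3.54 to -1.95 with 1 liver left out. The adipocyte markers Adipoq, Plin1, Lep and Cfd and the muscle markers Acta1, Ckm, Myh4 and Tnnt3 were at or under 3 counts in all female livers. The other 4 transporters tested had log2 fold changes of -0.13 to 0.35 in females.

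None of the 5 further phosphofructokinase isoforms and bifunctional enzymes had an unadjusted p under 0.05 with statin in either sex. Pfkp and Pfkfb4 were higher in females than in males on both diets by edgeR, DESeq2 and limma. Of the 11 lower glycolysis genes tested, Gapdh (log2 fold change -0.47, adjusted p = 0.292) and Eno1 (-0.43, adjusted p = 0.299) had an unadjusted p under 0.05 in females (4.56% of all genes in that direction), and none did in males (1.11%). Eno1 lost it without the third female statin liver (-0.33, adjusted p = 0.744). Ldha, which encodes a lactate dehydrogenase subunit, had an interaction of 1.21 (SE 0.46, adjusted p = 0.5003), in which 1 female statin liver with 1423 CPM stood above the other 2 at 487 and 577. Without that liver, the third, the interaction of Ldha was 0.57 (adjusted p = 0.743), and without the third female chow liver its unadjusted p exceeded 0.05.

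Of 7 transcription factors known at these genes, Mlxipl had a log2 fold change of -0.59 (SE 0.19, adjusted p = 0.261, edgeR) in females and -0.32 (SE 0.19, adjusted p = 1.00) in males. Its levels were 182, 258 and 199 CPM in female chow livers and 177, 117 and 129 in female statin livers, and the interaction was -0.27 (adjusted p = 0.932). Without the second female chow liver the female value of Mlxipl was -0.43, with an unadjusted p above 0.05 (adjusted p = 0.711). In females Hnf4a had a log2 fold change of -0.34, Srebf1 -0.13 and Nr1h3, which encodes an oxysterol receptor, 0.18. Of 9 carbohydrate response genes outside glycolysis, 3 had a positive and 6 a negative log2 fold change in females, with a median of -0.12. At an unadjusted p under 0.05, 1 of them was higher and 3 were lower in females (5.93% and 4.56% of all genes). Among them Me1, the malic enzyme of fat synthesis, had 1142, 1094 and 873 CPM in female chow livers and 829.7, 357 and 109 in female statin livers. Its log2 fold change was -1.26 (SE 0.51, adjusted p = 0.403) in females and 1.13 (SE 0.51, adjusted p = 1.00) in males. With 1 liver left out the female value of Me1 ranged from -2.14, without the first female statin liver, to -0.79, without the third, and 9 of 12 such fits had an unadjusted p under 0.05, all but those without the first or second female chow or the second female statin liver. In males only 3 of 12 did, those without the first or the third female statin or the first male statin liver. The female value also lost it with each sex fitted alone (-1.27, adjusted p = 0.753), and the male value in 5 of 12 other alternatives, namely limma with either pseudocount, library size alone, upper quartile factors and the stricter filter. Thrsp, a lipogenic nuclear protein, had -1.19 (SE 0.50, adjusted p = 0.415) and Mid1ip1, its relative, -0.63 (SE 0.20, adjusted p = 0.248) in females. The Thrsp value ranged from -1.91, without the first female statin liver, to -0.85, without the third, and its unadjusted p exceeded 0.05 without the second or the third female statin or any 1 of the female chow livers. Without the second female statin liver Mid1ip1 had -0.90 (adjusted p = 0.0399). Pnpla3, a lipid droplet acyl hydrolase, had an interaction of -3.06 (SE 1.31, adjusted p = 0.577), and 1 female statin liver had 0.556 CPM where the other 2 had 27.7 and 15.6. With 1 liver left out the interaction of Pnpla3 ranged from -3.91 to -2.42 and had an unadjusted p under 0.05 in 5 of 12 fits. Fgf21, a fasting hormone of the liver, was at or under 3.80 CPM in every liver and had log2 fold changes of 1.14 (SE 0.32, adjusted p = 0.217) in females and -0.83 (SE 0.33, adjusted p = 1.00) in males. By limma with a pseudocount of 1 its male value was -0.48 and its interaction 1.26, against 1.98 by edgeR. Gpd1, which makes glycerol phosphate for fat synthesis, had -0.60 (SE 0.24, adjusted p = 1.00) in males. In males the values of Fgf21 and Gpd1 each kept an unadjusted p under 0.05 in 8 of 12 fits with 1 liver left out, and Gpd1 was at -0.94 without the first male statin liver. In the female against male comparison on chow, 12 of the 45 genes were higher and 2 lower in females after adjustment (5.96% and 4.49% of all genes). On statin 6 were higher and 0 lower by edgeR (4.38% and 1.90% of all genes), with 10 higher and 0 lower at an unadjusted p under 0.05 (12.2% and 7.21% of all genes) and 7 higher and 0 lower by DESeq2 (6.95% and 3.78%).

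**Figure D4:**
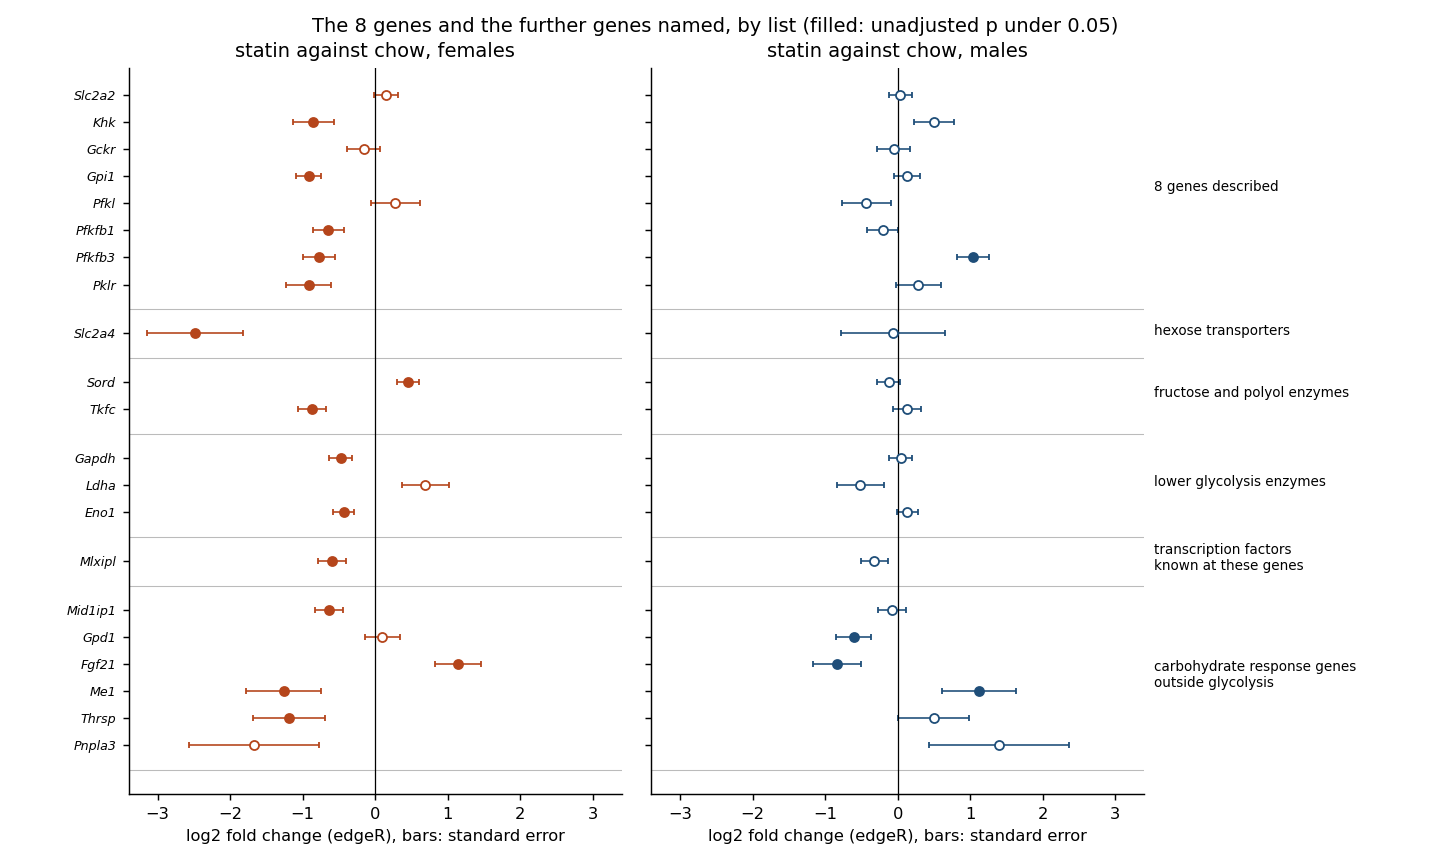
Log2 fold change with statin in females (left) and males (right) for the 8 genes and the further genes named in the text for an unadjusted p under 0.05 in females, males or the interaction, by list, with bars for the standard error from edgeR and filled points for an unadjusted p under 0.05. Filled points lie left of 0 for 5 of the 8 genes in females, and the lowest point among the other lists in females is Slc2a4 at -2.48.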

How the data were processed

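RNA from 12 livers was sequenced with a strand-specific poly(A) kit and 50 bp paired reads. Per the labels, the authors used STAR 2.4.1a, HTSeq and edgeR 3.28.1 with GRCm38. The deposited tables hold CPM values for 48526 genes and raw read counts for the 11968 genes that exceed 1 CPM in 6 or more libraries. The second table is named as normalized, but its values equal the reads recovered from the CPM table (100% whole within 0.01 of a read, 0 differing). No normalization was applied by the authors to the deposited counts. Depth was 46066381 to 60419223 counts per library. These totals exceed the read depth that the methods state, and the reason was not tested. The limits from 3 counts cover counting error only, whereas standard errors include the spread between livers.

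Counts were fitted with edgeR 4.0.16 (TMM factors, quasi-likelihood F test, 1 model with the 4 groups, 12 livers) and adjusted by Benjamini-Hochberg over 11968 genes. A standard error is the size of the log2 fold change over the root of its F value. All tests were two-sided. Alternatives used DESeq2 1.42.0, limma 3.58.1 with pseudocounts of 1 and 0.1, other scalings and filters, each sex alone, a replicate block and each liver left out. The fits were tested on simulated data. Gene positions and exons came from GENCODE vM21 and promoters from RefSeq. Python 3.11.15 and matplotlib 3.10.9 made tables and figures.

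The genes and lists were chosen with earlier results of these data known. All 8 genes were named. A gene of another list was named with values where its unadjusted p was under 0.05 in females, males or the interaction, and for each of the 8 genes up to 3 genes most like it. Pfkp, Pfkfb4, Hnf4a, Srebf1 and Nr1h3 were named after their values were seen. Some genes that this rule selects are not reported here.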

Additional observations from a re-analysis of the deposited data

Results flagged for a closer look

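Pfkfb3 was singled out because its statin effect had opposite signs in the sexes, with every statin-fed female below every chow-fed female and every statin-fed male above every chow-fed male. The interaction was -1.82 (SE 0.31, adjusted p = 0.137, edgeR's quasi-likelihood test), so it did not pass the adjusted threshold. Over the 11 alternatives other than leaving out a liver it lay between -1.87 and -1.68, with adjusted p values from 8.86e-05 to 0.286, and over the 12 fits with a liver left out between -2.00 and -1.64, with adjusted p values from 0.0486 to 0.365. The groups have 3 livers each and were not searched for single distant livers.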

How the results depend on the processing

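The number of the 8 genes with an unadjusted p under 0.05 in females was 5 in every fit other than those that left out a liver, and ranged from 4 to 6 over the latter. In males it was 1, rising to 2 with no filter on low counts, and ranged from 1 to 2 with a liver left out, and for the interaction it was 4 (3 to 5). The number with an adjusted p under 0.05 was 3 for the sexes on chow (1 to 3) and 1 on statin (1 to 2), where DESeq2 and upper quartile factors gave 2. The cause of these changes was not tested.

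Directions turned for values near 0 whose fits called no difference. The log2 sex difference of Slc2a2 on chow was 0.011 with upper quartile factors and 0.015 with the stricter filter, and on statin it was -0.014 with library size alone, where that of Pfkfb1 was -0.044. With 1 liver left out, the female statin effect ranged from -0.38 to 0.014 for Gckr and from -0.030 to 0.60 for Pfkl, and the male effect from -0.19 to 0.12 for Gckr, from -0.33 to 0.0033 for Pfkfb1 and from -0.066 to 0.16 for Slc2a2. The interaction ranged from -0.34 to 0.058 for Gckr and from -0.011 to 0.22 for Slc2a2. The sex difference on chow ranged from -0.11 to 0.41 for Pfkl and from -0.13 to 0.090 for Slc2a2. On statin it ranged from -0.55 to 0.034 for Khk, -0.080 to 0.49 for Pklr, -0.076 to 0.32 for Gckr, -0.16 to 0.20 for Pfkfb1 and -0.025 to 0.18 for Slc2a2.

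Over all genes in females, edgeR called 10 higher and 2 lower, DESeq2 158 and 112, edgeR with no filter 97 and 51, with the stricter filter 2 and 0, with library size alone 6 and 2, and with each sex fitted alone 0 and 0 (457 and 351 at an unadjusted p under 0.05). With 1 liver left out these counts ran from 0 higher and 0 lower, without the second female chow, the third female statin, any male chow or the second or the third male statin liver, to 58 and 17 without the second female statin liver. At an unadjusted p under 0.05, the 710 higher and 546 lower genes in females became 490 and 310 without the third female statin, 967 and 878 without the second female statin, 611 and 347 without the first female chow and 472 and 384 without the second female chow liver. With library size alone the larger side turned at that threshold, to 562 higher and 662 lower genes in females. The interaction then had 451 positive and 475 negative ones. Between the sexes it turned to 1360 higher and 1700 lower on chow and to 1091 and 1545 on statin. In males 98 and 74 were left without the third male chow liver, 365 and 265 with no filter and 57 and 80 with the stricter filter, and with no filter the interaction had 851 and 610. For the interaction, edgeR called 61 positive and 42 negative genes with no filter and 11 and 3 without the second female statin liver. Between the sexes DESeq2 called 1076 higher and 870 lower on chow and 832 and 452 on statin, and edgeR with the stricter filter 422 and 349 on chow and 246 and 110 on statin, against 713 and 537 on chow and 524 and 227 on statin in the fit reported. With library size alone the split was 565 and 653 on chow and 356 and 327 on statin. The smallest counts with 1 liver left out were 334 and 301 on chow, without the first male chow liver, and 250 and 128 on statin, without the second male statin liver. With no filter on low counts Gpi1 had an adjusted p of 0.00820 in females and Khk one of 0.0479 for the interaction. Deviations of same-numbered livers had a mean correlation of -0.109 over 18 pairs, with 5 over 0.1. Those of livers with different numbers had 0.0577 over 36 pairs, with 15 over 0.1. These pairs share livers and groups, so they cannot tell whether same-numbered livers belong together. A replicate block is given only here. With the replicate block the females had 4 higher and 1 lower gene, the counts of the 8 genes stayed at 5, 1, 4, 3 and 1 in the 5 comparisons, and the Gpi1 value in females was -0.91. The correction for exonic length was chosen after seeing the data. It left the counts of the 8 genes at 5, 1, 4, 3 and 1, and over all genes it called 13 higher and 3 lower in females, 819 and 652 between the sexes on chow and 606 and 309 on statin.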
